A study of Mus musculus with 9 samples.

Results

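Retinoid genes of mouse skin were described across 5 mice lacking Cd1d and 4 wild-type mice, as 12 probe sets of 9 genes among the 12422 non-control probe sets of the array. The genes are Adh7, Adh1, Adh5 and Aldh1a1, which encode enzymes, Crabp1 and Crabp2, which encode binding proteins, and Rara, Rarg and Rxra, which encode nuclear receptors. All probe sets annotated to these genes were taken, whatever their values, and 11 of the 12 passed the filter on dim signals, as did 7658 of all probe sets. The set was chosen by the roles of its genes and on the knockout minus wild-type difference of Adh7, so the genotype difference of Adh7 is given as a description with no test.

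Vitamin A reaches skin as retinol, which cells oxidise to retinal with alcohol or retinol dehydrogenases and then to retinoic acid with retinal dehydrogenases. Retinoic acid is carried in the cytosol by binding proteins and acts in the nucleus on RAR receptors, which bind DNA together with an RXR partner. In skin the pathway is known for its part in keratinocyte differentiation, sebaceous gland activity and the hair cycle.

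The knockout mice were Cd1d -/- on an inbred C57BL/6 background, and the wild-type mice were Cd1d +/+ C57BL/6, age and sex matched. No mouse had received UVB, and each array held RNA of the whole skin of 1 mouse, so that epidermis, follicles, glands, dermis, fat and muscle were measured together. CD1d is the molecule that presents lipids to natural killer T cells. The age, the sex and the skin site are not given in the sources used here. In whole tissue, fewer cells of a type and less RNA per cell cannot be told apart.

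The genotype labels were checked on Cd1d1, on chromosome 3, whose signal was 58.2, 65, 79.6, 47.6 and 51.1 in knockouts 1 to 5, against 112.4, 101.1, 91.0 and 130.0 in wild types 1 to 4. The groups did not overlap, with a log2 difference of -0.86 (SE 0.20), although limma's adjusted p was 0.242, and where its probes lie relative to the deleted part is not known here. The other gene of the pair, Cd1d2, was below the filter level in all mice, with 11.5 to 24.2 in knockout and 6.2 to 13.1 in wild-type skin, so that the check rests on Cd1d1. Among epidermal markers, Krt1 signals were 1402.7 to 5312.3 in knockout and 1295.2 to 2736.4 in wild-type skin, with 1 high value in knockout 4. The basal keratins Krt5 and Krt14 were dim on this array, with signals of 4.3 to 36.5 in knockout mice and 5.6 to 30.1 in wild-type mice, and did not pass the filter. The summed signal of the 17 measured genes among 27 hair follicle markers lay between 2557.6 and 37502.2 in knockout skin and between 2137.7 and 4505.0 in wild-type skin, and knockouts 1, 2 and 5 had the high follicle levels. Arrays have no sequencing depth, and the number of mice limits the precision of every value.

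Adh7 encodes the class IV alcohol dehydrogenase, an enzyme of epithelia that oxidises ethanol and retinol. Its promoter and those of its chromosome 3 neighbours Adh1 and Adh5 are shown because these enzyme genes are next to each other among the measured genes and their signals are compared by mouse. Each window runs from 250 bases before to 50 bases after an annotated start, from RefSeq on GRCm38.p6, plus strand. The Adh7 window lies at chr3:138217523-138217822, Adh1 at chr3:138277335-138277634, and the windows of the Adh5 starts at chr3:138436950-138437249 and chr3:138442843-138443142. Capitals mark matches on either strand to a nuclear receptor hexamer (AGGTCA or AGTTCA or GGGTCA or GGTTCA), to TGAGTCA (AP-1), to TATAAA (the letters of a TATA box, wherever they lie in the window) and to CCAAT.
Adh7: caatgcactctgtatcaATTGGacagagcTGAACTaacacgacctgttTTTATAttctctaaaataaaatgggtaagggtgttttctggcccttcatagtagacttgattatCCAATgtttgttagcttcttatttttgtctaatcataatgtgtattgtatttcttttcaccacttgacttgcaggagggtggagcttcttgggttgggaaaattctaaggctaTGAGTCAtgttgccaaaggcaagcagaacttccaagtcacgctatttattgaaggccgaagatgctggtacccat
Adh1: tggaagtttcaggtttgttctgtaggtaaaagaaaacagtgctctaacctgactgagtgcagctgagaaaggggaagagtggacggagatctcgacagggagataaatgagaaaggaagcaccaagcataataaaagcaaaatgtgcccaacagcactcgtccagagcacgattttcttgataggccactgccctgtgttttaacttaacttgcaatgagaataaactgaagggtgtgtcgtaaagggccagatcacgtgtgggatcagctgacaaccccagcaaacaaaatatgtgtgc
Adh5 start 1: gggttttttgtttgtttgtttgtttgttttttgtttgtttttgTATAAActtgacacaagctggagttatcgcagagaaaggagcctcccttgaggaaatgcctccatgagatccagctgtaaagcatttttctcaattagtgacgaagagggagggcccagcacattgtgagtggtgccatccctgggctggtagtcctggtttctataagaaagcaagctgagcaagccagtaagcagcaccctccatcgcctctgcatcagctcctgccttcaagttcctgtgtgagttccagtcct
Adh5 start 2: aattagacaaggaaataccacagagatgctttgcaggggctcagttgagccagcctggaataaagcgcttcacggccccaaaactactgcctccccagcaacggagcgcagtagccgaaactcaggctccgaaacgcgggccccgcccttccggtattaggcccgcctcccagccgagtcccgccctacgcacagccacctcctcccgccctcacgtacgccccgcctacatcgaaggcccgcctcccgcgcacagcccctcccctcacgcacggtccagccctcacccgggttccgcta

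The Adh7 window held AGTTCA, read as TGAACT, 221 bases before the start, and TGAGTCA 25 bases before it. It also held TATAAA, read as TTTATA, 202 bases before the start, and CCAAT at 233 bases (read as ATTGG) and at 138 bases before it, and none of these matches overlapped another. The Adh5 window of start 1 held TATAAA 207 bases before the start, while the windows of Adh1 and of Adh5 start 2 held none of the motifs. Of 32851 mouse promoter windows of this length, 43.7% held at least 1 of the 4 hexamers, 14.0% held AGTTCA, 5.2% TGAGTCA, 13.6% TATAAA and 37.4% CCAAT. A match describes letters in the window and does not show a bound site. Windows were matched for 8 of the 9 genes, and Crabp2 had none in the table.

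The Adh7 signal was 714.5, 698.3, 867.4, 787.3 and 819.1 in knockouts 1 to 5, against 1325.2, 1134.8, 1474.9 and 1682.9 in wild types 1 to 4. Every knockout mouse lay below every wild-type mouse, and the knockout mice were closer together. The mean was 777 ± 71.0 in knockout skin (SD, n = 5) and 1404 ± 232 in wild-type skin (SD, n = 4). The mean log2 difference was -0.84 (SE 0.13), which puts the geometric mean of the knockout signals at 55.7% of the wild-type one. Among knockouts the highest signal was 1.24 times the lowest, and among wild types 1.48 times. Over all 7658 probe sets, 106, or 1.38%, had groups that did not overlap with the knockout lower, a share beside which nothing is read for Adh7 because its difference chose it.

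**Figure D1:**
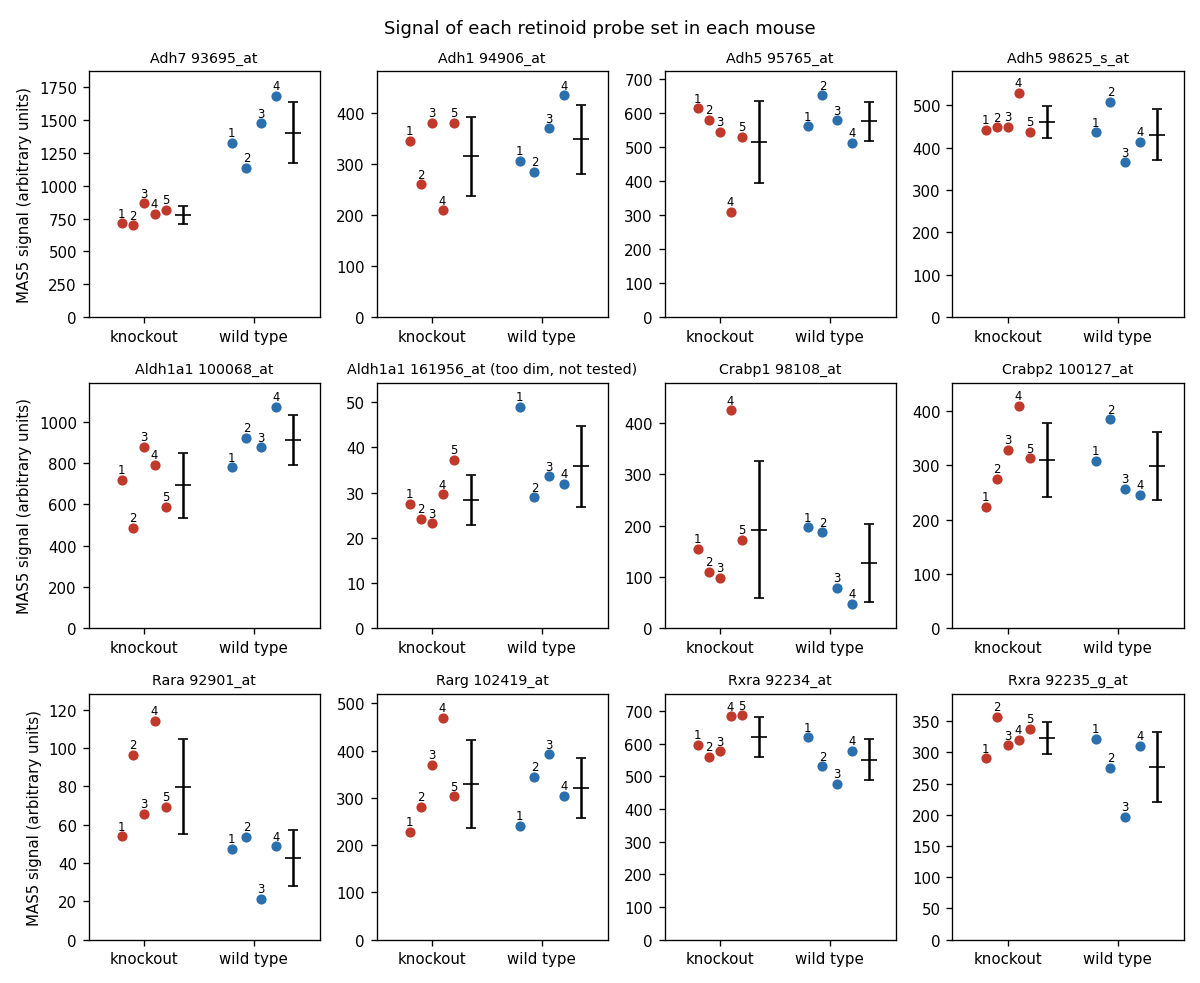
Signal of each member probe set by mouse on a linear axis, knockout mice left of wild-type mice, with the group mean and SD. The Adh7 signals of the knockout mice, 698.3 to 867.4, all lie below those of the wild-type mice, 1134.8 to 1682.9, while most other members overlap.

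The sums of red-cell and of macrophage markers were also lower in the knockout mice. The summed signal of 4 measured genes of 5 red-cell markers was 1355.9 to 2042.7 in knockout and 3361.9 to 5093.5 in wild-type skin, and that of 13 measured genes of 16 macrophage and dendritic cell markers was 11213.6 to 13877.5 in knockout and 14053.6 to 16579.5 in wild-type skin. Limma's adjusted threshold was passed by 2 of 4 red-cell probe sets (Hba-a1 and Hbb-b2), beside 0.0522% of all probe sets. It was passed by 0 of 16 macrophage and dendritic cell probe sets. At an unadjusted p under 0.05 limma gave 3 and 8, all lower in knockout skin, beside 9.4% of all probe sets (3.96% lower). The groups did not overlap in 3 of the 4 and 3 of the 16, all lower, beside 3.21% of all probe sets (1.38% lower). The red-cell gene Slc4a1 overlapped, at 29.9 to 101.6 in knockout and 45 to 83.3 in wild-type skin. Neither pair of sums overlapped, no measured marker of either list was at 0, and their part in the Adh7 difference was not tested. The deposited values carry 7 decimals in knockouts 1 and 2 and wild types 2, 3 and 4, and 9 decimals in the other 4 arrays. What the decimals mark is not stated in the sources used here. Within the 7-decimal arrays the Adh7 difference was -1.0, and within the 9-decimal arrays, which hold 1 wild-type mouse, it was -0.69 on the log2 scale. With the hair follicle level of each mouse as a covariate it was -0.82.

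Adh1, the class I alcohol dehydrogenase, had 345.2, 260.6, 380.4, 209.1 and 381.4 in knockouts 1 to 5, against 306.3, 284.3, 369.9 and 434.7 in wild types 1 to 4. The groups overlapped, with a log2 difference of -0.16 (SE 0.20) and a limma adjusted p of 0.831. Adh5, the class III enzyme that handles formaldehyde adducts of glutathione, is read by a pair of probe sets. The probe set 95765_at gave 613.8, 580.1, 544.1, 308.7 and 530.9 in knockout skin, against 561.0, 651.9, 579.1 and 512.7 in wild-type skin. The probe set 98625_s_at gave 442.1, 447.7, 448.6, 528.9 and 437.4 in knockout skin, against 436.3, 509.0, 365.2 and 413.6 in wild-type skin. Both overlapped between genotypes, and they disagreed in knockout 4, which was the lowest of all 9 mice in 95765_at and the highest in 98625_s_at. Their log2 differences were -0.19 (SE 0.19) and 0.10 (SE 0.13), with limma adjusted p-values of 0.791 and 0.831.

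The measured genes around Adh7 lay on both sides of 0. Of the 20 measured genes within 10 places on either side on chromosome 3, Adh1 and Adh5 included, 8 had a lower and 12 a higher mean in knockout skin, with a median log2 difference of 0.05 against 0.01 over 5855 measured genes. None passed limma at adjusted p 0.05, and 4 had an unadjusted p under 0.05, namely Npnt, Ube2d3, Slc39a8 and Kyat3, beside 501 of the 5855 genes. Slc39a8, a zinc transporter gene, had 167.8, 235.8, 80.5, 73.4 and 153.7 in knockout skin, against 61.8, 50.9, 55.2 and 57.0 in wild-type skin, and the log2 difference was 1.20 (SE 0.32, adjusted p 0.336 in limma). Its groups did not overlap, nor did those of Ube2d3 at 0.47 and Kyat3 at 0.52, all higher in knockout skin, whereas 97 of the 5855 genes were higher in knockout skin without overlap. Slc39a8 was highest in knockouts 1, 2 and 5, the mice with the high follicle levels, and the part of the follicles was not tested. Kyat3 reached the filter level in 5 knockout but only 2 wild-type mice. Cd1d1 lies on the same chromosome, with 183 measured genes between it and Adh7.

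**Figure D2:**
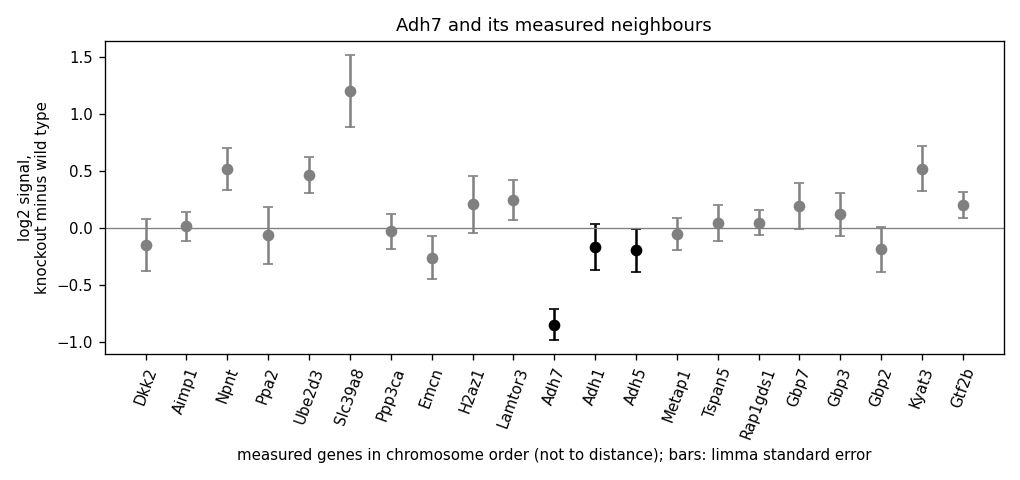
Log2 difference, knockout minus wild type, of Adh7 and the 20 measured genes around it in gene order on chromosome 3, with limma standard errors. Adh7 stands at -0.84, while the other genes run from -0.26 to 1.20.

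Aldh1a1 encodes the cytosolic retinal dehydrogenase that makes retinoic acid. Its bright probe set, 100068_at, gave 720.0, 485.6, 877.7, 792.0 and 587.5 in knockouts 1 to 5, against 779.1, 921.0, 876.7 and 1072.0 in wild types 1 to 4. Knockouts 2 and 5 were the lowest mice, knockouts 3 and 4 lay within the wild-type range, and the groups overlapped. The mean was 693 ± 157 in knockout skin and 912 ± 122 in wild-type skin (SD, n = 5 and 4), and the log2 difference was -0.42 (SE 0.18) with a limma p of 0.0356 and an adjusted p of 0.505. The difference was -0.69 within the 7-decimal arrays and -0.07 within the 9-decimal arrays, and it was -0.19 with the hair follicle level as a covariate. The other probe set, 161956_at, was dim, with signals of 23.2 to 37.3 in knockout mice and 29.0 to 49.0 in wild-type mice, and was not tested.

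Crabp1 and Crabp2 encode the cytosolic retinoic acid binding proteins. Crabp1 had 154.4, 110.2, 97.7, 423.9 and 172.6 in knockouts 1 to 5, against 196.6, 187.1, 78.6 and 47.5 in wild types 1 to 4. It varied most from mouse to mouse of the members that passed the filter, the highest knockout being 4.34 times the lowest and the highest wild type 4.14 times the lowest. Its log2 difference was 0.61 (SE 0.49, limma adjusted p 0.734), and it was 0.27 without knockout 4 and 0.21 without wild type 4. Crabp2 had 223.4, 275.1, 328.6, 409.8 and 313.1 in knockout skin, against 308.6, 384.9, 257.5 and 245.4 in wild-type skin. Its groups overlapped, and its log2 difference was 0.05 (SE 0.19, limma adjusted p 0.963).

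The receptor gene Rara had 53.9, 96.4, 65.5, 114.2 and 69.2 in knockouts 1 to 5, against 47.5, 53.8, 21.3 and 48.6 in wild types 1 to 4. The groups did not overlap, by a margin of 0.1 signal unit, and the probe set passed the filter through the knockout mice, since 5 of them but only 1 wild-type mouse reached the level of their array. A gene let through by the group where it is high had to differ, so its difference is given without a p. The mean was 79.8 ± 24.7 in knockout and 42.8 ± 14.6 in wild-type skin (SD, n = 5 and 4). The log2 difference was 0.93 (SE 0.32), and it was 0.42 with a pseudocount of 64 and 0.62 without wild type 3. Within the 7-decimal and the 9-decimal arrays it was 0.92 and 0.76.

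Rarg, which encodes the main RAR of epidermis, had 227.6, 280.9, 369.2, 469.4 and 303.0 in knockout skin, against 241.3, 343.9, 391.8 and 304.5 in wild-type skin. The groups overlapped, with a log2 difference of 0.02 (SE 0.21, limma adjusted p 0.988). The Rxra partner receptor is read by a pair of probe sets. The probe set 92234_at gave 597.5, 559.5, 576.6, 684.6 and 687.1 in knockout skin, against 620.4, 531.0, 477.8 and 578.4 in wild-type skin. The probe set 92235_g_at gave 290.3, 356.6, 311.2, 320.0 and 337.4 in knockout skin, against 322.1, 275.6, 196.9 and 310.2 in wild-type skin. Both overlapped between genotypes. The log2 differences were 0.17 (SE 0.12) and 0.25 (SE 0.16), with limma adjusted p-values of 0.703 and 0.656.

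With Adh7 and Rara left aside, none of the other 9 member probe sets, from 7 genes, passed limma at adjusted p 0.05, a threshold that 0.0522% of all tested probe sets passed (0.0261% higher and 0.0261% lower in knockout skin). The smallest adjusted p was 0.505. At an unadjusted p under 0.05 there was 1, Aldh1a1, lower in knockout skin, beside 9.4% of all probe sets (5.45% higher and 3.96% lower). The groups overlapped in all 9, whereas they did not in 3.21% of all probe sets (1.83% higher in knockout skin). The log2 difference was above 0 in 6 of the 9 and below 0 in 3, beside 51.2% and 48.8% of all probe sets, and the median was 0.05, against 0.01 over all 7658 probe sets.

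**Figure D3:**
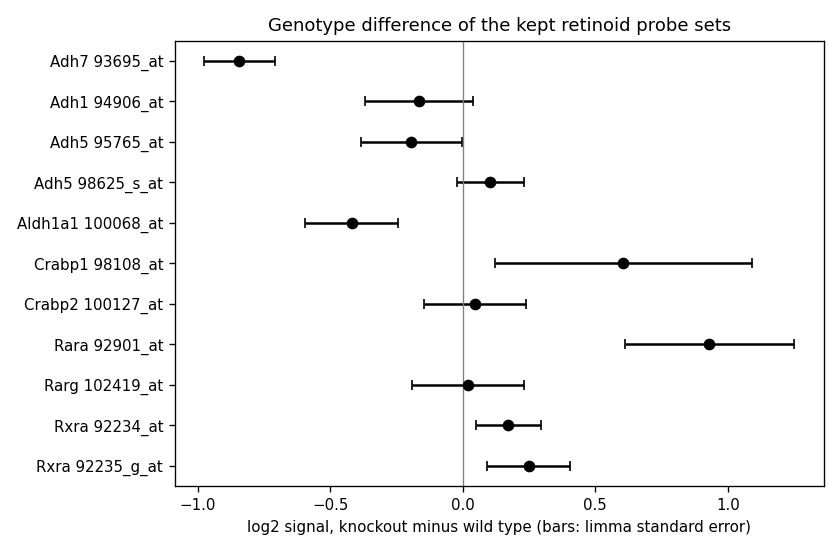
Log2 difference, knockout minus wild type, of the member probe sets with bars for limma's standard error. Adh7 at -0.84 and Rara at 0.93 are descriptions, Aldh1a1 stands at -0.42, and no tested member passed the adjusted threshold.

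The wider retinoid pathway comprised 91 listed genes, of which 56 were on the array with 71 probe sets, and 45 probe sets of 38 genes passed the filter. Of these, 2 probe sets, of Rdh7 and Rdh13, passed through the wild-type mice, with at most 1 knockout mouse at the level, and were left out of the counts, which leaves 43. None passed limma at adjusted p 0.05, the smallest adjusted p being 0.355, and 5 (11.6%) had an unadjusted p under 0.05, beside 9.4% of all probe sets, 4 of them higher and 1 lower in knockout skin. The groups did not overlap in 5 (11.6%), beside 3.21% of all probe sets. The median log2 difference was 0.05, with 26 above and 17 below 0. By step of the pathway the medians were 0.08 over 3 probe sets of uptake, storage and transport, 0.10 over 5 of retinol dehydrogenases, 0.05 over 3 of the retinal dehydrogenase list, 0.17 over 8 of partner receptors, 0.10 over 6 of cofactors, 0.04 over 8 of response genes and 0.00 over 9 of other aldehyde dehydrogenases. The 8 response probe sets were of Bhlhe40, Hbegf, Ivl, Krt1, Krt10, Lor, Rarres2 and Tgm2. They were not split by the direction in which retinoic acid moves each gene, so their median does not measure a response.

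Among the response genes, Rarres2, which encodes the chemoattractant chemerin, had 987.1, 792.7, 1064.4, 976.0 and 846.0 in knockout skin, against 1220.6, 1578.1, 1325.1 and 1112.9 in wild-type skin. All knockout mice were below all wild-type mice, with a log2 difference of -0.48 (SE 0.13, limma adjusted p 0.355), and the red-cell and macrophage sums were lower in the same mice, whose part here was not tested. Among partner receptors, the vitamin D receptor Vdr, probe set 99965_at, had 148.6, 158.1, 101.1, 129.8 and 131.5 in knockout skin, against 98.9, 85.3, 87.3 and 94.9 in wild-type skin. All knockout mice were above all wild-type mice, with a log2 difference of 0.53 (SE 0.16, limma adjusted p 0.363), while its other probe set, 99964_at, gave 0.40 (limma adjusted p 0.552).

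The thyroid hormone receptor Thra, probe set 92348_at, averaged 532 ± 78.8 in knockout and 638 ± 37.5 in wild-type skin, and was lower without overlap (-0.27 on the log2 scale, limma adjusted p 0.566), but 99077_at gave -0.02. Ncoa1, a receptor coactivator gene, averaged 110 ± 6.13 in knockout and 81.0 ± 19.5 in wild-type skin, and Ivl, the cornified envelope gene for involucrin, 87.3 ± 18.9 in knockout and 60.4 ± 11.3 in wild-type skin. Both lay higher without overlap, by 0.47 and 0.53 on the log2 scale, with limma adjusted p-values of 0.458 and 0.477. The retinal reductase gene Rdh11 had log2 differences of 0.45 and 0.29 in its probe sets 99591_i_at and 99592_f_at, with limma adjusted p-values of 0.443 and 0.561. In the list of retinal dehydrogenases, Aldh1a3 and Aldh1a7 had log2 differences of 0.14 and -0.13, with limma adjusted p-values of 0.909 and 0.917. Aldh1a7 was dim and reached the filter level in 3 knockout and 2 wild-type mice, and whether its enzyme acts on retinal is not shown by these data.

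Retinol uptake and storage was represented by Dgat1, an acyltransferase gene that can esterify retinol, at 0.31 (limma adjusted p 0.630), and Scarb1, a lipid uptake receptor gene, at -0.17 (limma adjusted p 0.772) on the log2 scale. Rdh7, a retinol dehydrogenase gene, was dim and averaged 39.3 ± 10.1 in knockout mice and 53.7 ± 6.66 in wild-type mice, with no test for the reason given. Fabp5, which delivers retinoic acid to a PPAR receptor, was the 1 measured probe set of retinoic acid clearance and delivery, and averaged 655 ± 91.0 in knockout mice and 558 ± 214 in wild-type mice (0.30 on the log2 scale, adjusted p 0.721 in limma). The probe sets of Cyp26a1, which clears retinoic acid, and of Stra6, Aldh1a2 and Rdh16 did not pass the filter. Nrip1, a corepressor gene, was at 0.28 (adjusted p 0.648 in limma), and of other aldehyde dehydrogenases Aldh2 96058_s_at was at -0.16 and Aldh3a1 at -0.21 (adjusted p 0.697 and 0.709).

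Which mouse was extreme differed from gene to gene. Over the 11 member probe sets that passed the filter, knockout 4 was the highest of all 9 mice in 5 and the lowest in 2, wild type 4 was the highest in 3, and wild type 3 the lowest in 4. Knockout 4 also had the highest sum over the 10 measured genes of 14 epidermal markers, 30528.7 in that mouse against at most 21466.5 in any other mouse, and its part in these values was not tested.

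**Figure D4:**
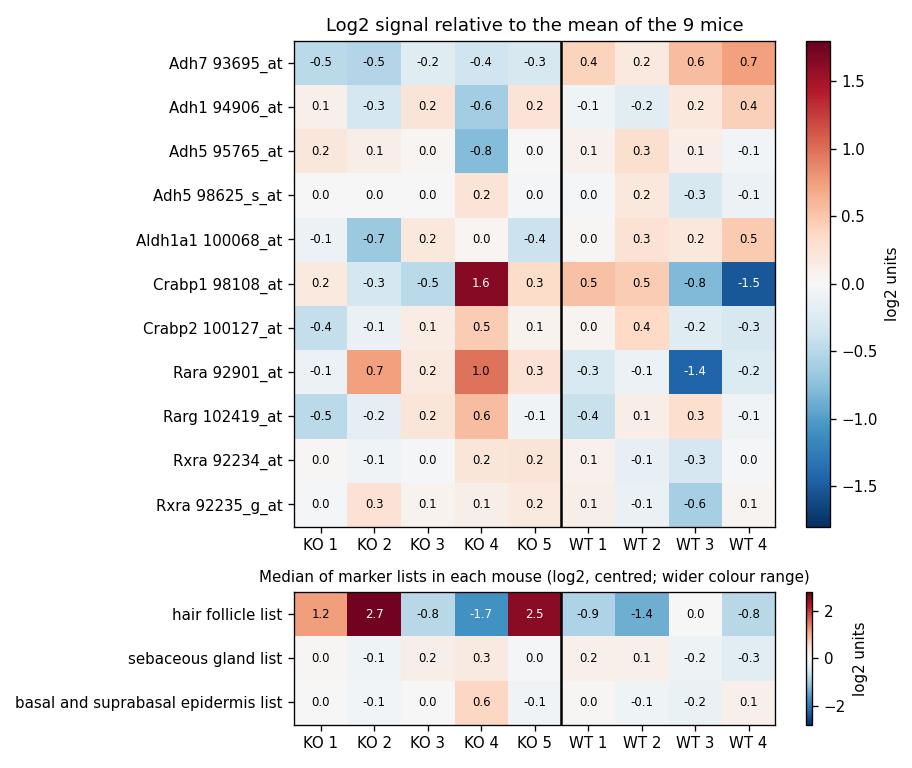
Centred log2 signal of each member probe set in each mouse, knockout mice left, above the medians of the marker lists on a wider colour range. Adh7 is low in all 5 knockout mice, and every other member row has both signs among the knockout mice.

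The members were set against the hair follicle, sebaceous gland and adipocyte levels of the 9 mice, as 33 relations over 11 probe sets. These include the relations of Adh7 and Rara, which entered the adjustment. Nothing is read from those, since Adh7 was chosen on its genotype difference and Rara passed the filter through the knockout mice. The sebaceous level rests on 6 measured genes of 14 listed, and the adipocyte level on 10 of 12. The 6 were Scd1, Mc5r, Plin2, Cidea, Pparg and Fasn, and they did not all move together. In knockout 4, which had the highest sebaceous level, Mc5r was at its lowest of the 9 mice (72.5), while Cidea (1469.3) and Plin2 (2039.4) were at their highest. The level is thus that of this list and is not shown to be that of the gland. Over the mice the sebaceous level ran only from -0.29 to 0.25 on the log2 scale, and the follicle level from -1.69 to 2.70. None of the 33 relations passed Benjamini-Hochberg adjustment of the exact permutation test, and 4 had an unadjusted p under 0.05. This count depended on the scaling, since with each array centred on its median 5 passed, the 4 that follow and Adh5 98625_s_at with the adipocyte level (r 0.81, exact permutation adjusted p 0.0311). Aldh1a1 ran opposite to the follicle level (Pearson's r -0.84, exact permutation p 0.0052, adjusted 0.0885, and Spearman's rho -0.62, exact permutation p 0.0857). This relation rests on knockouts 2 and 5, since r was -0.38 without them, and after genotype means were subtracted, a setting chosen after seeing the data, r was -0.78 (exact permutation p 0.058, adjusted 0.426). Crabp1 ran with the sebaceous level (r 0.83, exact permutation p 0.0054, adjusted 0.0885, and rho 0.73, exact permutation p 0.0311), at r 0.54 without knockout 4 and wild type 4 and r 0.81 with genotype means subtracted (exact permutation adjusted p 0.3705). Without knockout 3 the Crabp1 relation had r 0.96 (exact permutation adjusted p 0.0049). Crabp1 was highest in knockout 4 and lowest in wild type 4, and so was the dermal fibroblast level, which was not among the 3 lists. That level, from 9 measured genes of 10, was 0.35 in knockout 4, -0.44 in knockout 3 and -0.47 in wild type 4. Its relation to Crabp1 was not tested, so the sebaceous relation is not particular to sebaceous markers as far as is known here. Crabp2 and Adh5 98625_s_at had r 0.74 and 0.72 with the sebaceous level (exact permutation p 0.0237 and 0.0267, adjusted 0.220 for each), and r 0.58 and 0.65 without the 2 farthest mice. Their Spearman's rho was 0.73 for each (exact permutation p 0.0311, adjusted 0.3424). Adh7, described only, had r -0.50 with the follicle level and r -0.13 once genotype means were subtracted.

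**Figure D5:**
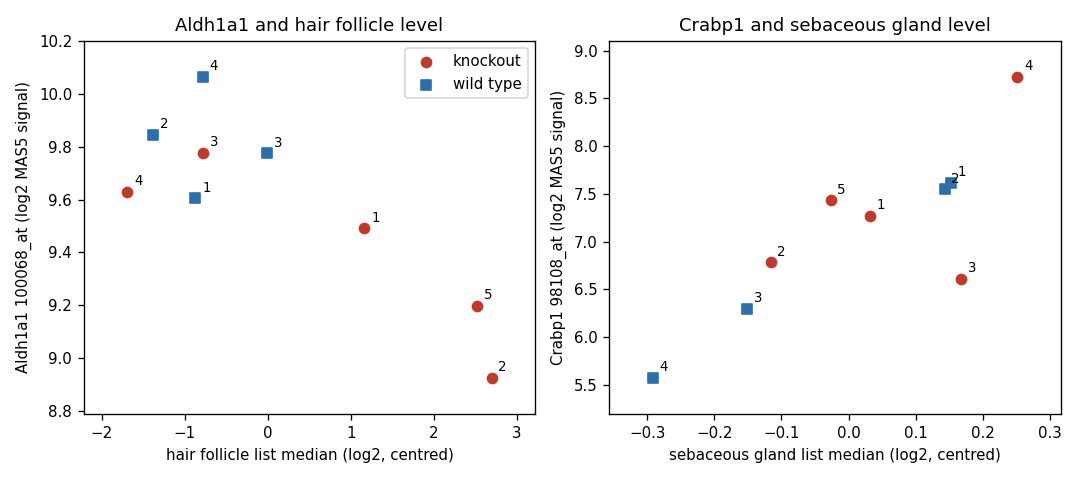
Log2 signal of member probe sets against the marker list level of each mouse, knockout mice and wild-type mice in separate colours. Aldh1a1 is lowest in knockouts 2 and 5, which have the highest follicle levels, and Crabp1 is highest in knockout 4.

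The 5 genes whose log2 signal ran most like that of Adh7 over the 9 arrays were Prrc1 (r 0.94), Gatm (0.93), the globin gene Hbb-b2 (0.93), Ip6k1 (0.93) and 1700017B05Rik (0.92). All 5 were lower in knockout skin without overlap, a direction that follows from choosing them by likeness to Adh7, and Ip6k1 passed the filter through the wild-type mice alone. With genotype means subtracted the closest were Mmp11 (r 0.99), Dsg2 (0.96), Pnn (0.95), Ncl (0.95) and Ppl (0.95), and the groups of these 5 overlapped. Mmp11 encodes a matrix metalloproteinase, and Dsg2 and Ppl encode desmosomal proteins. Mmp11 was dim and reached the filter level in 3 knockout and 3 wild-type mice. These correlations are descriptions over 9 arrays that share the genotype groups. By each measure the 5 were the highest among all kept single-gene probe sets, so a high r follows in part from the choice.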

How the data were processed

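Whole-skin RNA of 9 mice was hybridised to Affymetrix MG-U74 arrays, 1 mouse per array. Signals came from Microarray Suite 5.0, run by the authors per the labels. The deposited values are natural log signals, as read from the numbers: the exponential of 100% of them is a multiple of 0.1 within 0.002. The trimmed mean of the signals (2% at each end) was 200.11 to 200.13, so arrays had been scaled to one level. Detection calls were not used here, so no background level is known.

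Dividing by the natural log of 2 gave log2 signals, which were not normalised further. A probe set was kept if it reached its array's 40th percentile (a signal of 43.4 to 53.3) in at least 4 of 9 arrays, which left 7658. For knockout minus wild type, limma 3.58.1 in R 4.3.3 was used (lmFit and eBayes with a trend). Its two-sided p-values were adjusted over all kept probe sets by Benjamini-Hochberg, at a threshold of 0.05. A probe set that reached that level in at most 1 mouse of a genotype got no p for its genotype difference. It also entered no member or pathway count of differences in the main results, and this handling was chosen after seeing the data. Counts under alternative settings kept such probe sets in (Rara, Rdh7 and Rdh13), over 10 member and 45 pathway probe sets at the main filter. Correlations used an exact permutation test over all pairings of arrays (NumPy 2.4.6, with ranks from SciPy 1.17.1). Where genotype means were subtracted, only pairings within each genotype were permuted. The scripts were tested on simulated data. The platform annotation names 1 gene for 10833 probe sets, several for 396 and none for 1193. Gene order and promoters came from RefSeq tables of GRCm38.p6.

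The members and gene lists were chosen with earlier results of these data known. Named were all member probe sets, up to 2 genes per pathway list with the smallest p, the 5 genes most like Adh7 by each measure and its 10 neighbours on each side. Dim genes without values were named for their role. Alternatives changed the filter, pseudocount, normalisation, variance model, covariates or arrays.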

Additional observations from a re-analysis of the deposited data

Results flagged for a closer look

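In 3 of the 24 sets of member values tested (11 member probe sets and the dim Aldh1a1 probe set, in each genotype), 1 mouse stood far from the others of its group by Dixon's criterion on the log2 scale, and chance does this in about 1 of 20 sets. Knockout 4 had an Adh5 95765_at signal of 308.7, below the other knockouts at 530.9 to 613.8. The same mouse had an Adh5 98625_s_at signal of 528.9, above the other knockouts at 437.4 to 448.6, so the probe sets of this gene went opposite ways in it. Wild type 3 had a Rara signal of 21.3, below the other wild types at 47.5 to 53.8, and the Rara difference was 0.62 on the log2 scale without this mouse.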

How the results depend on the processing

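The counts of member and of wider pathway probe sets past limma's adjusted threshold were 0 under every alternative run. Over all probe sets the count was 4, and it was 7 with a pseudocount of 64, 9 with array weights, 1 with the hair follicle covariate, 10 within the 7-decimal arrays and 0 within the 9-decimal arrays (limma, 186 at an unadjusted p under 0.05). Leaving out 1 mouse at a time gave 4 to 8. The Adh7 difference lay between -1.0 and -0.69. Signs turned for Adh1 (0.026, 9-decimal arrays), Adh5 95765_at (0.045, 7-decimal arrays), Crabp1 (-0.029, 9-decimal arrays), Crabp2 (-0.072 with decimals as a block, -0.22 within 7-decimal arrays, -0.062 to 0.175 leaving out 1 mouse) and Rarg (-0.024 with median centring, -0.10 with array weights, -0.032 with decimals as a block, -0.45 within 7-decimal arrays, -0.12 to 0.14 leaving out 1 mouse). The cause was not tested. Of the 33 relations to marker levels, 0 passed, and 0 to 1 leaving out 1 mouse at a time, the 1 being Crabp1 with the sebaceous level without knockout 3 (r 0.96). With each array centred on its median 5 passed: Aldh1a1 with the follicle level (r -0.87, the 1 of the 11 follicle relations that passed), Crabp1, Crabp2 and Adh5 98625_s_at with the sebaceous level (r 0.83, 0.86 and 0.84) and Adh5 98625_s_at with the adipocyte level (r 0.81), at exact permutation adjusted p-values of 0.0311 to 0.0327. Pseudocounts, quantile normalisation and subtracted genotype means gave 0. Rara did not pass the stricter filter.

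With mouse number as a replicate block, knockout 5 being unpaired, 0 member probe sets and 1 of all probe sets passed, and Adh7 was at -0.86. Deviations of same-numbered mice correlated at -0.05 to 0.11, with 1 of 4 pairs over 0.1, so the numbers were not taken to pair the mice.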
